A study of Mus musculus with 6 samples.

Results

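Genes of MHC class I antigen presentation and of the interferon response were measured in the adult retinas of mice lacking Onecut2 (OC2-KO) and of their wildtype littermates (OC2-WT). The genes were 38 named ones, 11 of the class I pathway and 27 interferon-stimulated genes, and each was read from the brightest of its probe sets over all arrays. Of these, 35 were measured, 10 of the class I pathway and 25 interferon-stimulated, among 18193 named genes on the array. Psme2 and Isg15 had only a probe set that names several genes, and Ifi44 had none, so no value is given for them. Values are log2 intensities, in which a difference of 1 is a doubling, and a gene passed the expression filter where the mean of either genotype exceeded 7. The filter was passed by 18 of the 35, 6 of the class I pathway and 12 interferon-stimulated.

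The arrays hold total RNA of whole retina, 3 arrays per genotype, each genotype numbered 1 to 3. The OC2-KO mice are full knockouts of Onecut2, a transcription factor gene of the horizontal cell lineage, throughout the body. The paper reports that a substantial number of such mice are lost soon after birth, so the adults are survivors. The labels give the age as adult and name no treatment. Whether every array stands for its own animal is not said, and p-values then describe only how these arrays scatter, some of which may be technical.

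Interferons are cytokines that signal through paired receptors and Jak kinases to transcription factors in the nucleus. Type I interferons act mainly through a complex holding Stat2 and Irf9 that binds the interferon-stimulated response element, and interferon gamma acts mainly through the gamma-activated site. The genes that follow encode antiviral proteins, and also the machinery that cuts proteins into peptides and loads them on class I molecules for display to T cells. Neurons display little class I in healthy tissue, and glia, microglia and vessels display more.

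Across both groups most genes had higher means in OC2-KO, yet no single gene passed adjustment. The median difference of OC2-KO from OC2-WT was 0.15 over the 25 interferon-stimulated genes, 19 of them higher and 6 lower, and 0.32 over the 10 class I genes, 7 higher and 3 lower. Among members past the filter the median was 0.22 in each group. The 4 class I genes below the filter had a median of 0.57, so the larger class I value rests on genes near background. The median over all 18193 named genes was 0.0085, with 9342 higher and 8851 lower. By limma's moderated test with Benjamini-Hochberg adjustment, 0 of 21176 probe sets passed 0.05 (0%), and the 18 members that passed the filter all had an adjusted p of 0.999969, or 0.99939 with the replicate number as a block. At an unadjusted p of 0.05 in limma, 2 of the 18 were higher, Ifit1 and Ifitm3, against 0.732% of all genes tested, and 0 were lower, against 0.253%. Ifit1 passed the filter only through its OC2-KO mean, so its place among the 18 depended on the difference itself, and Ifitm3 was the 1 called member that passed in both genotypes. With the replicate block 6 were higher, Ifit1, Ifitm1, Ifitm2, Ifitm3, Irf9 and Tapbp, against 2.15%, and 0 were lower, against 1.38%.

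Counts without a model lay on the same side. The genotypes did not overlap, with OC2-KO higher, in 3 of 35 members, Ifitm1, Ifitm3 and Tapbp, against 2.87% of all named genes, and with OC2-KO lower in 1, Ifit2, against 2.25%. Arrays of one number resembled each other, so each OC2-KO array was also set against the OC2-WT array of its number. OC2-KO was higher in 3 of 3 such pairs for 11 of the 35 members, against 12.4% of all genes, and lower in 3 of 3 for 3, against 11.5%. Those higher in every pair were Tapbp, Psmb10, Ifit1, Irf1, Irf9, Ifitm1, Ifitm2, Ifitm3, Bst2, Mx1 and Rtp4, and those lower were Ifit2, Usp18 and Mx2.

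**Figure D1:**
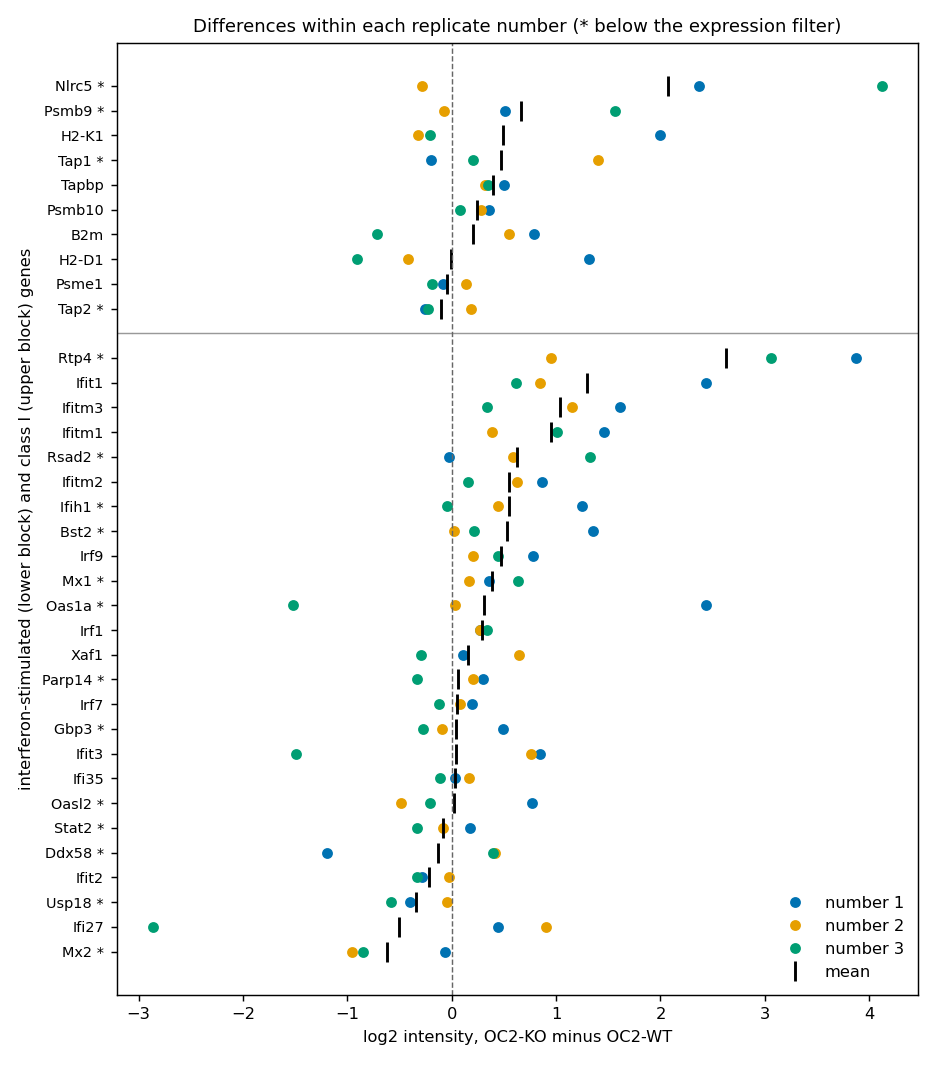
Difference in log2 intensity, OC2-KO minus OC2-WT, of each of the 35 measured genes within replicate numbers 1, 2 and 3 (coloured points) and as a mean (black bar). The upper block holds the 10 class I genes and the lower block the 25 interferon-stimulated genes, with an asterisk on the 17 below the expression filter. Number 1 lies farthest to the right for most genes, and 26 of the 35 means lie above 0.

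The membrane factors were the group whose 4 members were all higher in all 3 pairs. Ifitm1, Ifitm2 and Ifitm3 encode small membrane proteins that keep enveloped viruses from fusing with the cell, and Bst2 encodes tetherin, which holds budding virus particles at the surface. Ifitm3 read 8.66, 9.49 and 9.72 on the OC2-WT arrays 1 to 3 and 10.27, 10.64 and 10.06 on the OC2-KO arrays. All 3 OC2-KO arrays lay above all OC2-WT arrays, and the OC2-WT array 1 was the lowest. The difference was 1.03 ± 0.33 (SE, n = 3 per genotype), a 2.05-fold higher level, with an unadjusted limma p of 0.0161, or 0.0098 with the replicate block (adjusted p = 0.999969 and 0.99939). Every SE given is limma's moderated one, which draws a gene's variance toward a value from all probe sets kept. It is thus not the plain scatter of that gene's arrays.

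Ifitm1 read 6.22, 7.44 and 7.54 in OC2-WT against 7.68, 7.82 and 8.55 in OC2-KO. Its genotypes did not overlap either, and again the OC2-WT array 1 stood lowest. The difference was 0.95 ± 0.42 (SE, n = 3 per genotype), with a limma p of 0.0569 that became 0.0087 with the block, both unadjusted. Without the OC2-WT replicate 1 it was 0.53. Ifitm2 read 7.78, 8.39 and 8.71 in OC2-WT against 8.65, 9.02 and 8.87 in OC2-KO, so that the lowest OC2-KO array lay just under the highest OC2-WT array. Its difference was 0.55 ± 0.29 (SE, n = 3 per genotype), with an unadjusted limma p of 0.0971 and 0.0331 with the block, and it was 0.29 without the OC2-WT replicate 1. Bst2 stayed below the filter, at 4.67, 6.22 and 5.91 in OC2-WT against 6.02, 6.24 and 6.12 in OC2-KO, and its difference of 0.53 came mostly from the low OC2-WT array 1. The 3 Ifitm genes are neighbours on chromosome 7, with 0 other coding genes between Ifitm2, Ifitm1 and Ifitm3, and each had 1 probe set. In all 4 genes the OC2-WT array 1 was the lowest of the 6.

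**Figure D2:**
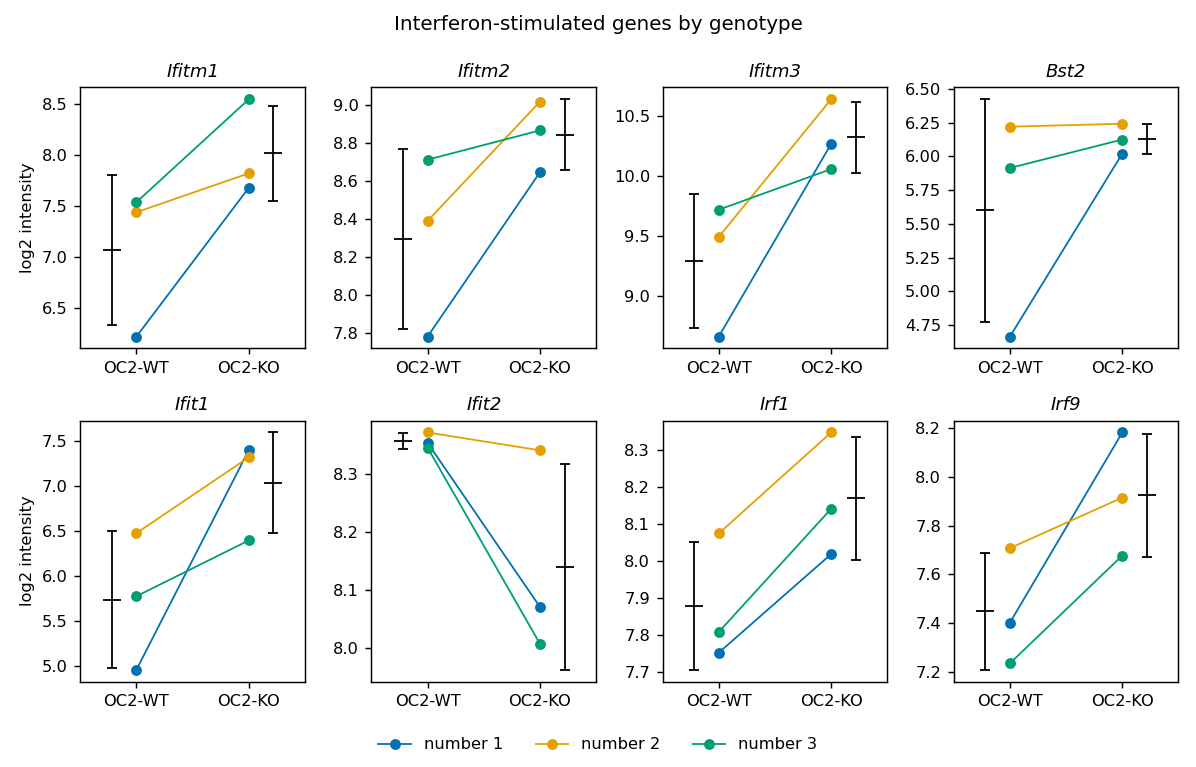
Log2 intensity of 8 interferon-stimulated genes in OC2-WT and OC2-KO retina, 1 point per array, with lines joining arrays of the same replicate number and black bars giving the mean and SD of 3 arrays beside the points. Each panel has its own axis range. Ifitm1 and Ifitm3 do not overlap between genotypes, and Ifit2 does not overlap in the other direction.

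The promoters of these genes are printed here because the members were higher together in all pairs and because they differ in the elements through which interferon acts. RefSeq promoters of GRCm38.p6, running from 250 bases before the first transcribed base to 50 bases from it on, were found for 30 of the 38 members, 9 of the class I pathway and 21 interferon-stimulated. Each was searched on both strands for a core of the interferon-stimulated response element, GAAANNGAA, and for the gamma-activated site, TTCNNNGAA, where N is any base. The 2 patterns can overlap. The response element core was in 8.56% of all 32851 promoters and the gamma-activated site in 8.3%. Counted by gene, the core was in 13 of 21 interferon-stimulated members (61.9%) and 2 of 9 class I members (22.2%), against 2638 of 27025 genes (9.76%). The gamma-activated site was in 6 of 21 (28.6%) and 0 of 9, against 2582 genes (9.55%). Among the measured interferon-stimulated genes, the 11 with the core had a median difference of 0.53, 9 of them higher, and the 8 with a promoter but no core had 0.10, 7 of them higher. Of the genes with the core, Bst2, Oas1a, Stat2, Rsad2, Ddx58, Ifih1 and Gbp3 were below the filter, and of those without it only Oasl2. The median of 0.53 was the value of Bst2, so it rests on genes near background. The contrast between genes with and without the core was not tested.

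The membrane factors' promoters follow, each 5′ to 3′ on the strand of its gene, with capitals on any match to either pattern. Ifitm1 lies at chr7:140967826-140968125 (plus strand), Ifitm2 at chr7:140955912-140956211 (minus strand), Ifitm3 at chr7:141010695-141010994 (minus strand) and Bst2 at chr8:71537423-71537722 (minus strand).
Ifitm1: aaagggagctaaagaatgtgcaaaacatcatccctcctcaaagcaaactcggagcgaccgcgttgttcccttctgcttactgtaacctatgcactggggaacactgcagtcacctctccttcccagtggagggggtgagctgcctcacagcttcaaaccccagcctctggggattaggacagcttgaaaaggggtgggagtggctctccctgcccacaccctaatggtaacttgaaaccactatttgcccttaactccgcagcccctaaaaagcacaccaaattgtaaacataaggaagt
Ifitm2: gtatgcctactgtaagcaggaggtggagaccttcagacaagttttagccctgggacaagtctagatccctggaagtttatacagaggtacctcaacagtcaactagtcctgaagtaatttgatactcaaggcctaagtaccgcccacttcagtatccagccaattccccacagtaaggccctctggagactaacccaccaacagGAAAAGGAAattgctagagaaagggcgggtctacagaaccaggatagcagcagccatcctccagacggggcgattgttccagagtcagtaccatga
Ifitm3: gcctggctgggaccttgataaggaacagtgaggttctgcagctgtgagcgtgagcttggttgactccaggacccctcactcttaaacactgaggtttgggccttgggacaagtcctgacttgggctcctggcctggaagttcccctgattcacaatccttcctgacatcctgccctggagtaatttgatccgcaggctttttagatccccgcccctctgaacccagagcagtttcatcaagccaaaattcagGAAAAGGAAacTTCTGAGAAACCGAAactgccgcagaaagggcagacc
Bst2: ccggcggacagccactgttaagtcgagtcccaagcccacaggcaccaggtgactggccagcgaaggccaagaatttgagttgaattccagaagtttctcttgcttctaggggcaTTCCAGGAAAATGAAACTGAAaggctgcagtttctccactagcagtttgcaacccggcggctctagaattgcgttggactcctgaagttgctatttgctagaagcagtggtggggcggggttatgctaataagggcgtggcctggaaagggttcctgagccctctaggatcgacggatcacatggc
Ifitm2 held 1 core, starting 46 bases before the first transcribed base. Ifitm3 held 2 cores, starting 2 and 19 bases after it, with a gamma-activated site starting 13 bases after it that overlaps the later core. Bst2 held 2 overlapping cores, starting 130 and 124 bases before it, joined by an overlapping gamma-activated site that starts 136 bases before it. Ifitm1, which had a difference near that of Ifitm3, held no match in this window, which says only that these letters are not in it.

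The RNA-binding and nucleotide effectors had higher means in 5 of 6 genes, with a median difference of 0.17, and Ifit1 differed most. Ifit1, Ifit2 and Ifit3 encode proteins with tetratricopeptide repeats, of which Ifit1 binds viral RNA that lacks the host cap methylation. Ifit1 read 4.95, 6.47 and 5.77 in OC2-WT against 7.39, 7.31 and 6.39 in OC2-KO. The OC2-KO array 3 fell below the highest OC2-WT array, so the genotypes overlapped. The difference was 1.30 ± 0.45 (SE, n = 3 per genotype), with an unadjusted limma p of 0.0222, or 0.0151 with the block. The OC2-KO mean of 7.03 just reached the filter and the OC2-WT mean of 5.73 lay near background, so the size of the fold is uncertain.

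Ifit2 went the other way, at 8.35, 8.37 and 8.35 in OC2-WT against 8.07, 8.34 and 8.01 in OC2-KO. The genotypes did not overlap, but the OC2-KO array 2 differed from its OC2-WT partner by only -0.031, and the difference of -0.22 ± 0.20 (SE, n = 3 per genotype) had an unadjusted limma p of 0.316. Ifit3 read 7.16, 7.70 and 7.94 in OC2-WT against 8.0, 8.46 and 6.45 in OC2-KO. Its 3 pairs differed by 0.85, 0.76 and -1.49, which left a mean difference of 0.037 ± 0.52 (SE, n = 3 per genotype). Ifit2 and Ifit3 are neighbours on chromosome 19, with Ifit1 3 coding genes farther on, and the 3 genes took different courses over the pairs. Oas1a and Oasl2, of the 2′-5′ oligoadenylate synthetase family, and Rsad2, which encodes viperin, were below the filter, with differences of 0.31, 0.024 and 0.63.

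The promoter of Ifit1, at chr19:34640639-34640938 (plus strand), is shown because it held 3 copies of the core.
Ifit1: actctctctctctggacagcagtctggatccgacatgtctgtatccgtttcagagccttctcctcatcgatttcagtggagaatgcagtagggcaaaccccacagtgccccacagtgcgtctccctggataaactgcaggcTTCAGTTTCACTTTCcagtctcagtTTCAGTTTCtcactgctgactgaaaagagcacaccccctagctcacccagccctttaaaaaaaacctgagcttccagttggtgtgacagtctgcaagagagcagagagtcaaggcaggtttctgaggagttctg
The cores lie on the minus strand, so the printed sequence shows their reverse complement. They start 109, 103 and 84 bases before the first transcribed base, and the first and second overlap.

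Among the transcription factors, Irf9 and Irf1 were higher in every pair. Irf9, a DNA-binding partner of Stat2, read 7.40, 7.71 and 7.24 in OC2-WT against 8.18, 7.91 and 7.68 in OC2-KO. The genotypes overlapped slightly, since the OC2-KO array 3 lay just under the OC2-WT array 2. The difference was 0.48 ± 0.24 (SE, n = 3 per genotype), with an unadjusted limma p of 0.0863, or 0.0411 with the block. Irf1, a factor induced by interferon gamma that drives class I genes, read 7.75, 8.07 and 7.81 in OC2-WT against 8.02, 8.35 and 8.14 in OC2-KO. Its pairs differed by 0.27, 0.27 and 0.33, the most even course of the transcription factors, although the genotypes overlapped through the high OC2-WT array 2. The mean difference was 0.29 ± 0.21 (SE, n = 3 per genotype) with an unadjusted limma p of 0.213. Irf7, which amplifies type I interferon, differed by 0.050 ± 0.21 (SE, n = 3 per genotype), from 8.29, 8.50 and 8.31 in OC2-WT to 8.48, 8.58 and 8.19 in OC2-KO. Stat2 was below the filter, with a difference of -0.084.

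Of the remaining interferon-stimulated genes, Ifi27, Ifi35 and Xaf1 passed the filter. Ifi27, which encodes a mitochondrial protein, read 8.21, 7.90 and 8.77 in OC2-WT against 8.66, 8.80 and 5.91 in OC2-KO. The OC2-KO array 3 alone was low, and the difference of -0.50 ± 0.75 (SE, n = 3 per genotype) rested on it, since the first and second pairs were higher by 0.45 and 0.90. Ifi35 and Xaf1 differed by 0.029 ± 0.30 and 0.15 ± 0.24 (SE, n = 3 per genotype). Another Ifi35 probe set past the filter differed by 0.43, higher in every pair, and a further one below the filter by -0.23. The other probe sets of Ifi27 and Xaf1, both below the filter, differed by 0.79 and 1.58, so these differences depend on the probe set.

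The genes below the filter ranged more widely and can be read only as values near background. The RNA sensors Ddx58 (RIG-I) and Ifih1 (MDA5) differed by -0.13 and 0.55, and the dynamin-like GTPases Mx1, Mx2 and Gbp3 by 0.39, -0.62 and 0.043. Usp18, which removes Isg15 from proteins and dampens receptor signalling, differed by -0.34, and Parp14 by 0.056. Rtp4, a chaperone for chemosensory receptors that interferon also induces, read 2.41, 5.75 and 1.74 in OC2-WT against 6.28, 6.70 and 4.80 in OC2-KO. Its difference of 2.62 was the largest of all members, from 2 OC2-WT arrays far below the other 4 arrays. The other Rtp4 probe set, also below the filter, differed by 0.92 and was not higher in every pair, with -1.39 in pair 3.

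In the class I pathway the heavy chains and beta-2-microglobulin varied by array more than by genotype. H2-D1 and H2-K1 encode the class I heavy chains that hold the peptide, and B2m the light chain common to all of them. H2-D1 read 11.04, 12.89 and 11.29 in OC2-WT against 12.36, 12.47 and 10.38 in OC2-KO. H2-K1 read 9.77, 12.07 and 10.63 in OC2-WT against 11.76, 11.75 and 10.42 in OC2-KO. For both heavy chains the OC2-WT array 2 and the OC2-KO arrays 1 and 2 were high, and the OC2-WT arrays 1 and 3 and the OC2-KO array 3 were low.

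B2m read 9.78, 10.60 and 10.55 in OC2-WT against 10.57, 11.15 and 9.83 in OC2-KO, low on the OC2-WT array 1 and the OC2-KO array 3 as the heavy chains were, but not low on the OC2-WT array 3. The differences were -0.0058 ± 0.69 for H2-D1, 0.49 ± 0.63 for H2-K1 and 0.21 ± 0.39 for B2m (SE, n = 3 per genotype). Their pair 1 differences were 1.32, 2.00 and 0.79, and their pair 3 differences were -0.91, -0.21 and -0.72. The SD within genotypes was 1.10 for H2-D1, larger than in 98.9% of genes that passed the filter, and 0.99 for H2-K1, larger than in 98.4%, where the median gene had 0.305. For B2m it was 0.57, larger than in 88.7%.

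**Figure D3:**
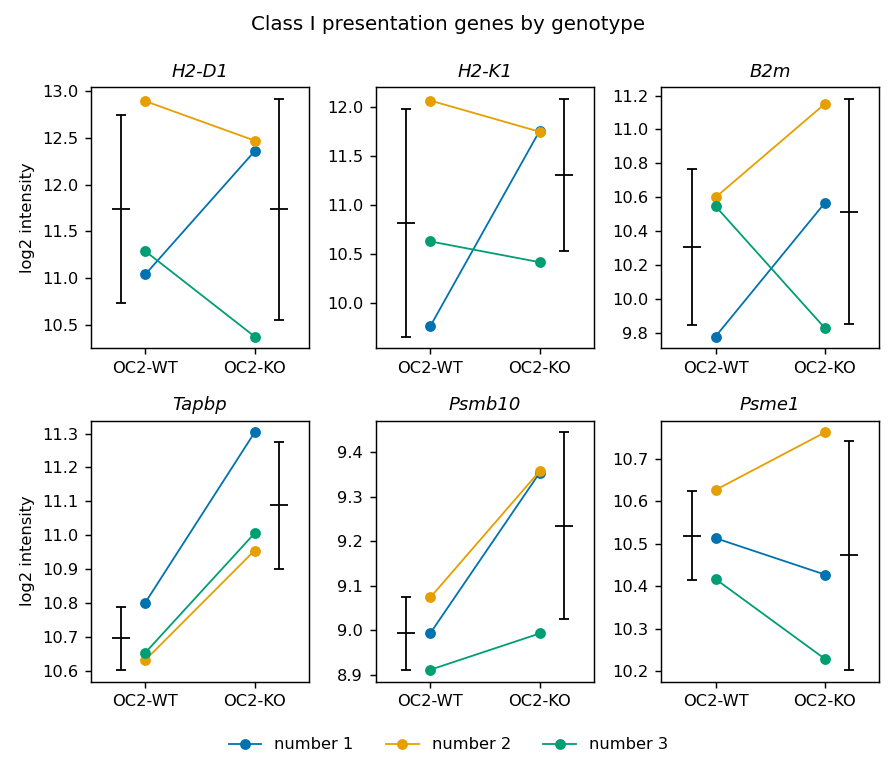
Log2 intensity of the 6 class I genes that passed the expression filter in OC2-WT and OC2-KO retina, 1 point per array, with lines joining arrays of the same replicate number and black bars giving the mean and SD of 3 arrays beside the points. Each panel has its own axis range. Lines cross for H2-D1, H2-K1 and B2m and run upward together for Tapbp and Psmb10.

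The array pattern of the heavy chains was shared by the bright probe sets. H2-D1 had 9 probe sets, 2 with a higher and 7 with a lower OC2-KO mean, from -1.22 to 1.19, and H2-K1 had 4, 3 higher and 1 lower, from -0.36 to 0.49. Class I heavy chains are near-identical in long stretches, and an x in a probe set name marks probes that can also bind other transcripts, so these values may mix several heavy chains. The brightest H2-D1 probe set without that mark differed by -0.38. The second B2m probe set was higher in every pair, by 0.51, 0.74 and 0.26, with a mean of 0.50, while the brighter one was lower in pair 3, so the sign in pair 3 depends on the probe set.

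**Figure D4:**
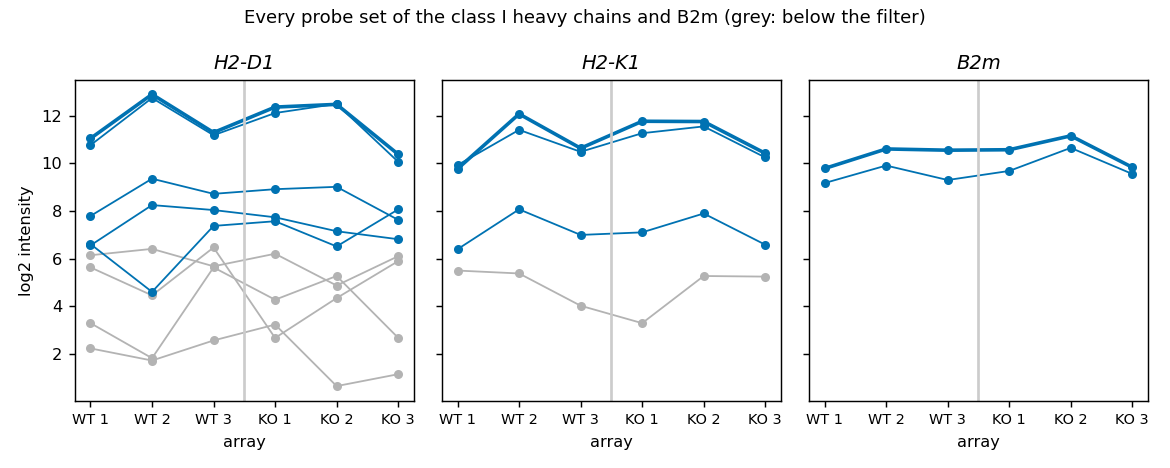
Log2 intensity of all 9 H2-D1, 4 H2-K1 and 2 B2m probe sets on the 6 arrays, 1 line per probe set, with the brightest drawn thickest and those below the filter in grey. The brightest heavy chain probe sets peak on the OC2-WT array 2 and the OC2-KO arrays 1 and 2 and are low on the other arrays.

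Of the peptide-loading genes Tapbp had the steadiest difference. Tapbp encodes tapasin, which bridges class I molecules to the peptide transporter. It read 10.80, 10.63 and 10.65 in OC2-WT against 11.30, 10.96 and 11.01 in OC2-KO. All OC2-KO arrays lay above all OC2-WT arrays, and the pairs differed by 0.50, 0.32 and 0.35. The difference was 0.39 ± 0.21 (SE, n = 3 per genotype), with an unadjusted limma p of 0.099, or 0.0459 with the block. The second, dimmer Tapbp probe set differed by 0.017, with 0.15, -0.12 and 0.017 in the pairs, so the steady difference holds for the brighter one only. Tap1 and Tap2, which form the transporter, were below the filter, at 6.46, 5.41 and 7.0 against 6.25, 6.81 and 7.21 for Tap1 and with a difference of -0.10 for Tap2.

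Psmb10 and Psme1 were the proteasome genes that passed the filter. Psmb10, a catalytic subunit of the immunoproteasome, read 8.99, 9.07 and 8.91 in OC2-WT against 9.35, 9.36 and 8.99 in OC2-KO, higher in each pair but overlapping between genotypes, with a difference of 0.24 ± 0.21 (SE, n = 3 per genotype) and an unadjusted limma p of 0.287. Psme1, a subunit of the PA28 activator, read 10.51, 10.63 and 10.42 in OC2-WT against 10.43, 10.76 and 10.23 in OC2-KO, with a difference of -0.046 ± 0.22 (SE, n = 3 per genotype). Psmb9 and Nlrc5, the transactivator of class I genes, were below the filter, with differences of 0.67 and 2.07. Nlrc5 spanned 2.16 to 4.80 in OC2-WT against 4.52 to 6.29 in OC2-KO, so the genotypes overlapped.

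Promoters of the light chain and of tapasin are shown as the class I pair with and without the core. B2m lies at chr2:122147437-122147736 (plus strand) and Tapbp at chr17:33919228-33919527 (plus strand).
B2m: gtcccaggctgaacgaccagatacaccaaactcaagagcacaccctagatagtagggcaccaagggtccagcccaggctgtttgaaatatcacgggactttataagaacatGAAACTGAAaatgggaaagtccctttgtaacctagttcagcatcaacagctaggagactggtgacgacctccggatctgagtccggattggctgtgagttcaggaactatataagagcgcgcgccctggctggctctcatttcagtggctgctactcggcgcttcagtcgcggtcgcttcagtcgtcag
Tapbp: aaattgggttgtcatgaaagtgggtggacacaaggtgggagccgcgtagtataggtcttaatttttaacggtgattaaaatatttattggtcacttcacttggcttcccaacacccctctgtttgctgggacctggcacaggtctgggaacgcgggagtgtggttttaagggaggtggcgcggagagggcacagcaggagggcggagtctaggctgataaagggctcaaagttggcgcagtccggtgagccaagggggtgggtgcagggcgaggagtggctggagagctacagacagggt
B2m held 1 core, starting 139 bases before the first transcribed base. Tapbp, which had the steadier difference, held no match to either pattern in this window.

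The OC2-WT array 1 was the lowest of the 6 arrays in 10 of the 25 interferon-stimulated genes (40%), against 17.2% of all named genes, and the OC2-KO array 2 was the highest in 10 (40%), against 13.0%. Among the 10 class I genes the OC2-KO array 2 was likewise the most often highest, in 3 (30%), while the OC2-WT array 3 and the OC2-KO array 3 were each lowest in 3 (30%), against 19.3% and 15.3% of all named genes, and the OC2-WT array 1 in 2 (20%). Whether the groups rank the arrays differently was not tested. The median pair differences of the interferon-stimulated genes were 0.45, 0.21 and -0.11, and 80%, 76% and 44% of them were higher in OC2-KO. For the class I genes the medians were 0.51, 0.16 and -0.053, with 70%, 60% and 50% higher. Over all named genes the shares were 53.9%, 48.6% and 49.9%. Both groups were highest in OC2-KO relative to OC2-WT in pair 1, and in pair 3 their medians were slightly negative.

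**Figure D5:**
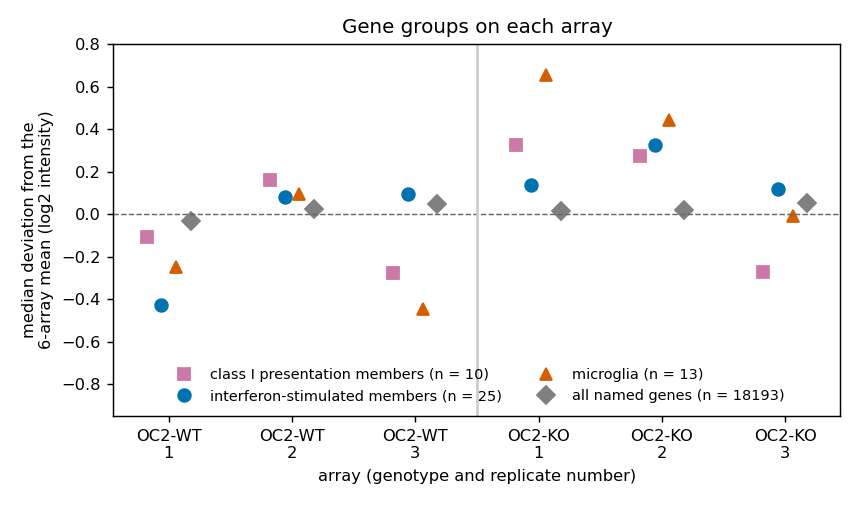
Median deviation of each gene group from its 6-array mean, in log2 intensity, on each array. The interferon-stimulated genes stand at -0.43 on the OC2-WT array 1 and between 0.079 and 0.32 on the other arrays, and the class I genes stand near -0.27 on both arrays numbered 3.

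Other genes of the pathway, from lists chosen by function, were read in the same fit. Of 17 ligands, receptors, kinases and sensors, 16 were measured and 10 passed the filter, with 0 past an unadjusted limma p of 0.05 in either direction, with or without the block. The type I receptor chains Ifnar1 and Ifnar2 differed by 0.28 ± 0.29 and 0.30 ± 0.31 (SE, n = 3 per genotype), and the kinase Jak2 by 0.11 ± 0.22. The ligands Ifnb1 and Ifng were below the filter on all means. Of 5 inhibitors of interferon signalling, all were measured and 4 passed the filter, with 1 higher at that threshold, Socs3, against 0.732% of all genes, and 2 with the block, Socs3 and Ptpn6, against 2.15%. Both passed the filter only through OC2-KO, at means of 7.97 and 7.04 against 6.78 and 6.31 in OC2-WT, so nothing is read from these counts.

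Socs3, which blocks cytokine receptors that signal through Jak kinases and is induced by several cytokines besides interferon, read 7.43, 5.89 and 7.02 in OC2-WT against 8.11, 7.72 and 8.07 in OC2-KO. The genotypes did not overlap, and the difference was 1.19 ± 0.40 (SE, n = 3 per genotype), with an unadjusted limma p of 0.0209 (adjusted p = 0.999969). Ptpn6, a phosphatase of blood-derived cells and microglia, differed by 0.73 ± 0.55 (SE, n = 3 per genotype).

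Of 30 further interferon-stimulated genes, 29 were measured and 14 passed the filter. None was past an unadjusted limma p of 0.05 (0 of 14), and with the block 1 was higher, the guanylate-binding protein gene Gbp2, at 0.94 ± 0.58 (SE, n = 3 per genotype), against 2.15% of all genes. Gbp2 too passed the filter only through OC2-KO, at a mean of 7.39 against 6.46. Their median difference was 0.16, with 19 higher and 10 lower, close to the 0.15 of the 25 members. Of 10 other class I genes, 8 were measured with a median difference of 0.022, and 0 of 5 that passed the filter were called. Of 7 class II genes, which serve display by professional antigen-presenting cells, 6 were measured, 5 of them higher, where 9342 of all 18193 named genes were. Only Cd74 passed the filter, and only through OC2-KO, at a mean of 7.25 against 6.85 in OC2-WT. Its difference was 0.40 ± 0.30 (SE, n = 3 per genotype), and nothing is read from it.

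Markers of cells that carry these pathways were read beside them. Of 14 microglial markers 13 were measured, 12 of them higher, where 9342 of all 18193 named genes were, and 7 passed the filter. Tyrobp, a signalling adaptor of microglia, was higher by 1.05 ± 0.30 (SE, n = 3 per genotype), with an unadjusted limma p of 0.00945 (adjusted p = 0.999969). At an unadjusted limma p of 0.05, 1 of the 7 microglial markers past the filter was higher, Tyrobp, against 0.732% of all genes tested. With the block 4 were higher, Tyrobp, Tmem119, Ctss and C1qa, against 2.15%, and of these Tmem119 passed the filter only through OC2-KO. The summed intensity was 2830 to 3485 in OC2-WT and 3665 to 4985 in OC2-KO, without overlap, and their median pair differences were 0.93, 0.42 and 0.26. All 6 endothelial markers had higher means, with summed intensities of 1500 to 3005 in OC2-WT and 1883 to 3561 in OC2-KO. Of the 3 that passed the filter 0 were called, and with the block 1 was higher, Cldn5, against 2.15% of all genes tested. Markers of T and NK cells (0 of 8) and of neutrophils and monocytes (0 of 4) passed the filter nowhere, with summed intensities of 125 to 206 against 137 to 200 and of 71.2 to 151 against 79.9 to 226. In RNA of whole retina more cells of a type and more RNA per cell cannot be told apart, and the part of microglia or vessels in the differences above was not tested.

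The labelled tissue was borne out by its markers, with all 5 measured rod genes past the filter, and the markers Calb1 and Septin4 of horizontal cells, which need Onecut2, had differences of -0.76 and -0.57. Onecut2 itself is read by probes near its 3′ end, where the paper reports a higher signal in OC2-KO. Its loss can thus not be seen with them, and it was not used here to check the labels. The 3′ minus 5′ log2 signal of Actb, a measure of RNA integrity, was 1.11, 0.71 and 2.95 in OC2-WT against 1.41, 0.74 and 3.39 in OC2-KO, so arrays numbered 3 stood apart in both genotypes. The titles of these arrays also put their words in another order than the other titles do, and the titles do not say why. Xist and Y-linked transcripts gave a male pattern on the pair numbered 1, a female one on the pair numbered 2, and unlike patterns in number 3, female for OC2-WT but male for OC2-KO. Pair 3, in which the medians of both gene groups were slightly negative, was thus the pair with the largest 3′ bias and the one with unlike sex. The 29 further interferon-stimulated genes had a positive median of 0.25 in that pair, with 62.1% of them higher. The part of RNA integrity or sex in the differences was not tested, and without both arrays numbered 3 the median difference was 0.28 for the interferon-stimulated genes and 0.43 for the class I genes.

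The differences rested unevenly on single arrays. Without the OC2-KO replicate 2, 0 of 18 members tested were past an unadjusted limma p of 0.05, beside 560 of 21389 probe sets. The count was 1 of 20 without the OC2-WT replicate 1, beside 292 of 21673 probe sets. It was 1 of 21 without the OC2-KO replicate 1, beside 240 of 21582, and 4 of 19 without the OC2-WT replicate 3, beside 244 of 21297. With both arrays of a number left out it was 0 of 21 without number 1, beside 241 of 21777 probe sets. It was 0 of 18 without number 2, beside 256 of 21316, and 3 of 20 without number 3, beside 240 of 21266. The median of the interferon-stimulated genes was 0.056 without the OC2-WT replicate 1, 0.34 and 0.25 without the OC2-WT replicates 2 and 3, and 0.23 and 0.43 without the OC2-KO replicates 1 and 3. The class I median was 0.15 without the OC2-WT replicate 1, 0.49 without the OC2-KO replicate 3 and 0.081 without both arrays numbered 1. Ifitm1, Ifitm2, Ifitm3, Irf1, Irf9, Tapbp and Psmb10 were higher, and Ifit2 lower, under every alternative run.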

How the data were processed

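Total RNA of adult retina, amplified and labelled with biotin, was read on Affymetrix mouse genome arrays, 3 for each genotype. The deposited table gives a linear intensity for each of 45101 probe sets, which the authors background-adjusted and normalized with MAS5 (version not stated), and each array has a 2% trimmed mean of 500. Such scaling hides any difference shared by all genes, and precision is limited by how few arrays there are.

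Groups came from the genotype in the sample labels. The 64 control probe sets were left out, log2 was taken, and the study's own filter, a mean over 7 in at least one genotype, left 21176 probe sets and 11065 genes. Platform annotation gave 1 symbol to 34945 probe sets, several to 932 and none to 9160. OC2-KO was compared with OC2-WT with limma 3.58.1 (lmFit, eBayes; R 4.3.3), two-sided, without trend or block, with 4 residual degrees of freedom and Benjamini-Hochberg adjustment over all that passed the filter. Scripts were tested on simulated data.

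Arrays of one replicate number were paired, since, after the mean of each genotype was taken off, they correlated at 0.576, 0.590 and 0.585 against -0.429 to -0.135 between numbers. Taking off the mean makes an array's covariances with the arrays of the other genotype cancel. The negative values between numbers thus follow in part from the positive ones within numbers. No label ties a number to a litter, and the pairing comes from the values alone. The blocked fit has 2 residual degrees of freedom.

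The members and lists were chosen with earlier results of these data known. Per-array values were given for H2-D1, H2-K1, B2m, members whose genotypes do not overlap and up to 3 members of each role group by smallest limma p, and of other lists up to 3 genes were named. Values of members below the filter, and of Ifnb1, Ifng and other genes beyond that rule, were named after they were seen. Other settings were no filter, a filter at 8, a floor at 6, median centring, quantile normalization, array weights, an intensity trend, the replicate block, the methods' t-test and one with unequal variances, other choices of probe set, and each array or pair left out. The promoters are from RefSeq.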

Additional observations from a re-analysis of the deposited data

How the results depend on the processing

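No setting gave a probe set past an adjusted p of 0.05 in limma (0 in each), and 209 passed an unadjusted 0.05, 140 higher and 69 lower, all probe sets counted. That count was 1144 without a filter, 127 with a filter at 8, 436 with array weights and 887 with the replicate block, and 209 to 560 with arrays left out, the highest without the OC2-KO replicate 2. Median centring moved the split to 124 higher and 84 lower. The count of members past it, 2 as reported, was 1 with quantile normalization, 1 with array weights, 1 with the unequal-variance t-test, which called Tapbp alone, and 6 with the replicate block. It ran from 0 to 4 with arrays left out, and was 0 without the OC2-KO replicate 2 or either of the pairs 1 and 2. The methods' t-test called 2, Ifitm3 and Tapbp.

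The class I median ran from 0.081 to 0.49 with arrays left out and from 0.17 to 0.39 otherwise, and the interferon-stimulated median from 0.056 to 0.43 and from 0.099 to 0.31. Array weights turned H2-K1 to -0.27, Ifit3 to -0.061 and Irf7 to -0.036, and quantile normalization turned Ifit3 to -0.0084. Leaving out arrays turned the sign of 9 genes, whose differences ran from -0.11 to 0.67 for B2m, -0.67 to 0.67 for H2-D1, -0.27 to 1.11 for H2-K1, -1.21 to 0.67 for Ifi27, -0.18 to 0.23 for Ifi35, -0.37 to 0.80 for Ifit3, -0.031 to 0.16 for Irf7, -0.19 to 0.076 for Psme1 and -0.095 to 0.37 for Xaf1. The cause was not tested. Among the other genes read, the replicate block added calls for Ptpn6, Gbp2, Tmem119, Ctss, C1qa and Cldn5 and changed no other call. Ifit1 did not pass the filter in some settings and has no value there. Probe sets under the filter lie near background, which limits 17 of the 35 members.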
